A study of Mus musculus with 8 samples.

Results

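Cholesterol and fatty acid synthesis genes were examined in RNAseq of cultured mouse embryonic fibroblasts (MEFs), cells of connective tissue. The 31 genes were chosen by symbol from the enzymes of both pathways and their regulators, and all 31 were found among the 19493 endogenous genes counted. They comprised 19 sterol genes (18 enzymes of the route from acetyl-CoA to cholesterol and the sterol carrier Stard4), 4 regulators and 8 fatty acid genes. None of them lies in the segment duplicated in the mutant cells. The data comprise 4 WT libraries and 4 Dp1Tyb libraries, with ERCC spike-in controls, synthetic RNAs added in the same amount to the same number of cells. The label for the WT cells is wild-type, and that for the mutant cells is Dp(16Lipi-Zbtb21)1TybEmcf, a duplication from Lipi to Zbtb21 that models part of trisomy of the human chromosome involved in Down syndrome. Both groups share the strain background C57BL/6J.129P2, came from embryos at E14.5, and were cultured in DMEM containing fetal bovine serum. The comparison addressed whether the duplication alters expression of unduplicated genes, and here whether it alters those of lipid synthesis.

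Cells make cholesterol by condensing acetyl-CoA units into mevalonate, building isoprenoids from it, joining these to squalene and closing the rings to a sterol that is then trimmed to cholesterol. Fatty acids are built from the same acetyl-CoA by a separate set of enzymes and are then desaturated and elongated. Genes of both routes are textbook targets of the SREBP transcription factors, which are held in the endoplasmic reticulum with Scap by Insig proteins when sterols are plentiful and are released for cleavage when sterols are scarce.

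Total counts per library ran from 17698900 to 26471758. Endogenous RNA per spike-in, the ratio of the library factors of both scalings described next, ran from 0.688 in Dp1Tyb replicate 2 to 1.31 in Dp1Tyb replicate 4, so the choice of scaling matters. Relative and spike-in scaling were therefore both used. In relative scaling, CPM values (each count divided by the adjusted library total) are adjusted so that the bulk of endogenous genes is level across libraries, and in spike-in scaling libraries are levelled on the spike-ins. In bulk libraries, fewer cells of a type and less RNA per cell cannot be told apart. The study's methods derive MEFs from littermate embryos, but neither they nor the labels tie each of these libraries to an embryo of its own, so p-values measure the spread between these samples, part of which may be technical. Fibroblast markers were abundant, with a summed level of 22272 to 31832 CPM in WT and 26079 to 31666 CPM in Dp1Tyb, and the 4 adipocyte markers with counts summed to 12.3 to 26.4 CPM in WT and 14.3 to 18.2 CPM in Dp1Tyb, mostly from Fabp4 and Pparg, with Adipoq and Plin1 at most 1.66 CPM in any library. Xist was high in WT replicate 2 and Dp1Tyb replicate 1 (36188 and 38867 counts) and at most 60 counts in the other libraries. Those 2 libraries also held few counts of the Y-linked genes Ddx3y, Eif2s3y, Kdm5d and Uty (1 to 49 counts), so sex as read from these genes was mixed within each genotype and neither genotype came from 1 embryo alone.

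No member was called between Dp1Tyb and WT. With edgeR's quasi-likelihood test and Benjamini-Hochberg adjustment over 16470 tested genes, 0 of 31 members reached an adjusted p under 0.05 with either scaling, while of all tested genes 0.0121% did so when scaled to spike-ins and 0.0182% when scaled relatively. At an unadjusted p under 0.05, 0 of 31 members passed, against 1.17% of tested genes in the spike-in fit and 4.27% in the relative fit. DESeq2 and limma-voom also called 0 members with both scalings, and neither gave any member an unadjusted p under 0.05. In no member did the 4 Dp1Tyb libraries lie wholly above or wholly below the 4 WT libraries. With relative scaling such a separation occurred in 1.64% (above) and 1.49% (below) of tested genes, and with spike-in scaling in 0.291% and 0.14%.

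The fitted differences were small. With relative scaling the members' log2 fold changes (Dp1Tyb over WT) ran from -0.12 for Elovl6 to 0.32 for Ebp, and their medians were 0.03 for the sterol genes, -0.03 for the regulators and 0.08 for the fatty acid genes, beside 0.01 for all tested genes. With spike-in scaling the median of all tested genes moved to 0.11, and those of the same lists to 0.14, 0.09 and 0.18. These medians moved with single libraries: with spike-in scaling they ran from 0.02 (without Dp1Tyb replicate 4) to 0.30 (without WT replicate 1) for the sterol genes, from -0.04 (without WT replicate 3) to 0.29 (without Dp1Tyb replicate 2) for the regulators and from 0.06 (without Dp1Tyb replicate 4) to 0.35 (without Dp1Tyb replicate 2) for the fatty acid genes. The fitted value was above 0 for 31 of 31 members under spike-in scaling, where 70.4% of all tested genes were above 0, and for 19 of 31 under relative scaling, where the share was 51.2%. Single libraries moved these counts, to 18 of 31 without WT replicate 3 and 20 of 31 without Dp1Tyb replicate 4 with spike-in scaling, and under relative scaling from 9 of 31 without Dp1Tyb replicate 3 to 27 of 31 without Dp1Tyb replicate 1. For 30 of 31 members, all but Ebp, the 95% confidence interval of the log2 fold change lay within 1 of 0 under both scalings. Half-widths of these intervals had a median of 0.338 with relative scaling and 0.623 with spike-in scaling.

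**Figure D1:**
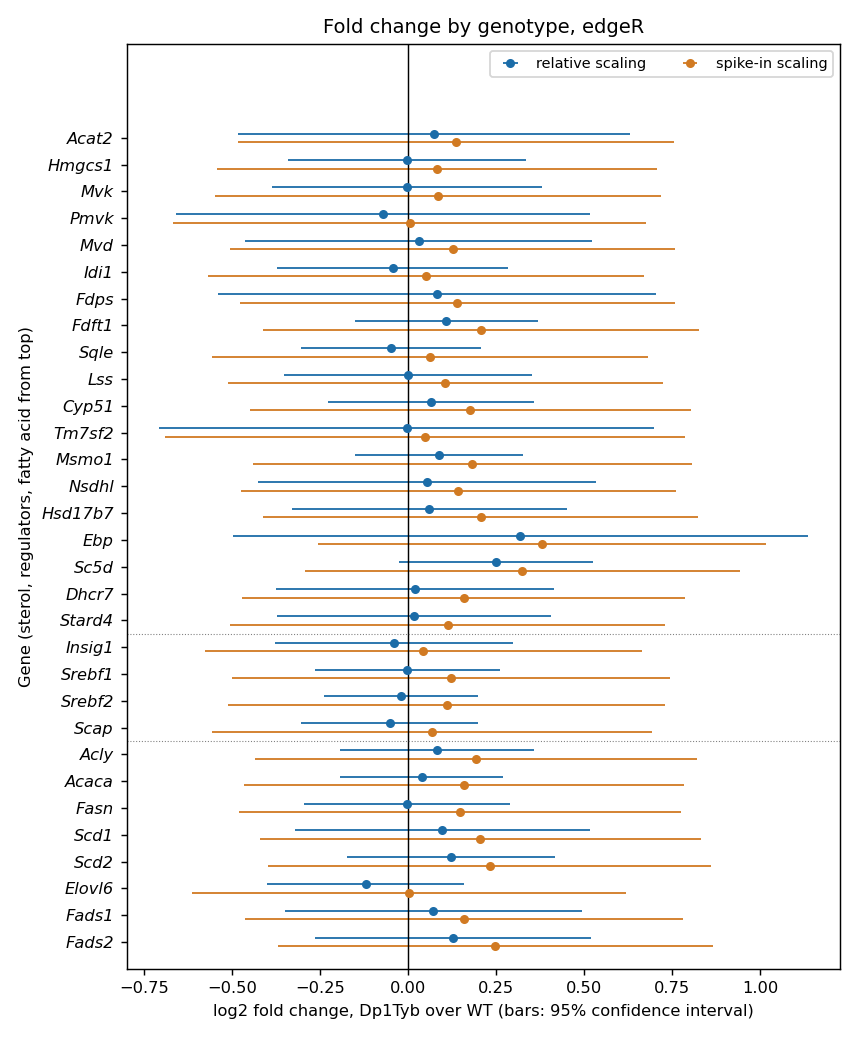
Log2 fold changes of the 31 members between Dp1Tyb and WT (x axis), by gene (y axis), from edgeR with relative scaling (blue) and spike-in scaling (orange). Points are fitted values and bars are 95% confidence intervals from 4 libraries per genotype, and every bar crosses 0.

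The pathway begins with Acat2 and Hmgcs1, which condense acetyl-CoA units into the precursor of mevalonate. Hmgcs1 (chr13:119690379-119708260, GRCm38) is among the most abundant transcripts of the list at 96.1 RPKM (CPM per kilobase of exon) over all libraries. It stood at 497, 456, 475 and 339 CPM in the 4 WT libraries, in the order of their replicate numbers, and at 385, 511, 482 and 386 CPM in the 4 Dp1Tyb libraries, and values below keep this order. Both genotypes spanned nearly the same range, with WT replicate 4 lowest and Dp1Tyb replicate 2 highest. The log2 fold change was -0.0036 (95% interval -0.34 to 0.33) with relative scaling. Acat2 measured 95.2, 94.9, 89.2 and 59.3 CPM in WT and 50.2, 116, 108 and 82.8 CPM in Dp1Tyb, again with low values in WT replicate 4 and Dp1Tyb replicate 1.

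The mevalonate kinases and decarboxylase (Mvk, Pmvk, Mvd), the isomerase Idi1 and the synthase Fdps, which together turn mevalonate into farnesyl diphosphate, had log2 fold changes between -0.07 (Pmvk) and 0.08 (Fdps) with relative scaling. Levels of Fdps, which makes farnesyl diphosphate, were 151, 186, 135 and 101 CPM in WT and 78.0, 201, 185 and 143 CPM in Dp1Tyb. The Dp1Tyb libraries thus enclosed the whole WT range. Fdft1 and Sqle carry out the first steps committed to sterols, the making of squalene and its epoxidation. Sqle (chr15:59315077-59331192) measured 205, 217, 220 and 185 CPM in WT and 167, 206, 229 and 198 CPM in Dp1Tyb. Its spread was narrow, the highest library being 1.37 times the lowest, and its log2 fold change was -0.05 (-0.31 to 0.21).

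Lss, the cyclase that closes the sterol rings, is the one member whose human orthologue lies on the chromosome trisomic in Down syndrome, but its mouse locus (chr10:76531588-76557138) is outside the duplication. Its levels were 132, 121, 121 and 91.9 CPM in WT and 88.9, 117, 142 and 117 CPM in Dp1Tyb, so the groups overlapped almost completely. The log2 fold change of Lss was 0.00012 (-0.35 to 0.35) with relative scaling and 0.11 (-0.51 to 0.72) with spike-in scaling, the latter at the median of all tested genes. Exons of Lss share 381 bases with an antisense transcript on the other strand, and 11 of the 31 members (Hmgcs1, Idi1, Fdps, Fdft1, Lss, Cyp51, Tm7sf2, Srebf1, Scap, Scd2 and Elovl6) share exon bases with another annotated gene. The strand option of the counting is not given in the sources used here, so reads could have been split or dropped where genes overlap on opposite strands. Fdps (1124 bases), Tm7sf2 (532 bases), Srebf1 (66 bases) and Scd2 (61 bases) share exon bases with a gene on their own strand. There, reads could have been split or dropped under any strand option.

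The trimming of lanosterol to cholesterol involves Cyp51, Tm7sf2, Msmo1, Nsdhl, Hsd17b7, Ebp, Sc5d and Dhcr7. Cyp51, the demethylase that acts first (chr5:4081145-4104746), measured 350, 404, 461 and 369 CPM in WT and 347, 461, 454 and 393 CPM in Dp1Tyb. The log2 fold change of Cyp51 was 0.06 (-0.23 to 0.36). Tm7sf2, a reductase of the same stretch, was the least abundant member at 1.87 RPKM, and Dhcr7, which makes the last reduction to cholesterol, stood at 7.51 RPKM. Dhcr7 (chr7:143823145-143848410) measured 49.8, 46.9, 45.0 and 31.7 CPM in WT and 37.7, 36.6, 55.7 and 45.7 CPM in Dp1Tyb. No order of the genotypes was visible in it.

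Ebp and Sc5d, a sterol isomerase and a desaturase near the end of the route, had the highest fitted fold changes of the list and are described for that reason, after their values had been seen. Ebp (chrX:8185329-8193512) measured 23.2, 40.2, 30.4 and 21.1 CPM in WT and 13.4, 53.1, 44.0 and 32.9 CPM in Dp1Tyb. Dp1Tyb replicate 1 was the lowest library of all and Dp1Tyb replicate 2 the highest, a 3.96-fold span that was the widest of the list. The log2 fold change of Ebp was 0.32 (-0.50 to 1.14) with relative scaling and 0.38 (-0.26 to 1.02) with spike-in scaling.

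Sc5d (chr9:42251595-42264256) measured 137, 144, 137 and 122 CPM in WT and 136, 193, 169 and 145 CPM in Dp1Tyb. Dp1Tyb replicates 2, 3 and 4 lay above every WT library, and Dp1Tyb replicate 1 lay within the WT range. The log2 fold change was 0.25 (-0.03 to 0.53), with an edgeR p of 0.0722 that was the smallest of the list and an adjusted p of 0.999. Ebp and Nsdhl are X-linked, and the 2 high-Xist libraries held the lowest Dp1Tyb value and the highest WT value of Ebp. For Nsdhl they held the lowest Dp1Tyb value (50.8 CPM) and a middle WT value (87.9 CPM, below the 96.8 CPM of WT replicate 3). Dropping single libraries under relative scaling moved the log2 fold change of Ebp between 0.07 (Dp1Tyb replicate 2 dropped, unadjusted edgeR p of 0.863) and 0.59 (Dp1Tyb replicate 1 dropped), and that of Sc5d between 0.15 (Dp1Tyb replicate 2 dropped, unadjusted edgeR p of 0.205) and 0.32 (Dp1Tyb replicate 1 dropped). Without Dp1Tyb replicate 1, Ebp and Sc5d had unadjusted edgeR p of 0.0325 and 0.0258 with that scaling, where 5.53% of tested genes were under 0.05, and both had an adjusted p of 0.814. Without both high-Xist libraries, an alternative added after seeing the data, Fdps, Ebp and Sc5d had unadjusted edgeR p of 0.0319, 0.003 and 0.0233 under relative scaling, where 13.5% of tested genes were under 0.05. Their log2 fold changes there were 0.45, 0.81 and 0.36, and the smallest adjusted p was 0.173, for Ebp. In the spike-in fit these unadjusted edgeR p were 0.334, 0.0666 and 0.454, and without Dp1Tyb replicate 1 those of Ebp and Sc5d were 0.0779 and 0.340. The part of sex in these values was not tested.

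The 4 regulators sense sterols or carry the response. Srebf2 encodes SREBP2, the factor mainly tied to sterol genes, and Srebf1 encodes SREBP1, mainly tied to fatty acid genes. Srebf2 (chr15:82147181-82205379) measured 223, 209, 232 and 202 CPM in WT and 205, 193, 231 and 225 CPM in Dp1Tyb. It varied little, with the highest library at 1.20 times the lowest. Srebf1 (chr11:60199089-60222581) measured 75.2, 61.9, 65.0 and 55.4 CPM in WT and 62.3, 57.5, 66.3 and 71.1 CPM in Dp1Tyb. Their log2 fold changes were -0.02 (-0.24 to 0.20) and -0.0026 (-0.26 to 0.26). Per exon length, Srebf1 ran at 0.377 times Srebf2 in WT and 0.384 times in Dp1Tyb (geometric means, two-sided exact permutation test, p = 0.743, n = 4 per genotype).

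Scap, the escort protein, and Insig1, its retention partner and itself a sterol-regulated gene, differed in how much they varied. Scap (chr9:110333288-110384950) measured 55.4, 50.0, 52.2 and 60.0 CPM in WT and 50.6, 45.7, 52.9 and 60.5 CPM in Dp1Tyb. Insig1 (chr5:28071363-28078662) measured 256, 215, 211 and 159 CPM in WT and 195, 220, 229 and 173 CPM in Dp1Tyb. WT replicate 4 was lowest for Insig1, and this gene's highest library was 1.61 times the lowest, against 1.32 times for Scap. Neither log2 fold change, -0.05 (-0.31 to 0.20) for Scap and -0.04 (-0.38 to 0.30) for Insig1, departed from 0.

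The 8 fatty acid genes include the most abundant transcripts of the list. Acly, which supplies cytosolic acetyl-CoA, Acaca, which carboxylates it, and Fasn, which assembles palmitate, form the core. Acly (chr11:100476353-100528000) measured 505, 480, 515 and 419 CPM in WT and 422, 516, 579 and 514 CPM in Dp1Tyb. Fasn (chr11:120805846-120824547) measured 611, 587, 689 and 643 CPM in WT and 623, 496, 699 and 707 CPM in Dp1Tyb. Acaca (chr11:84129672-84401651) measured 281, 299, 298 and 269 CPM in WT and 254, 289, 322 and 313 CPM in Dp1Tyb. Its highest library was 1.26 times its lowest, the narrowest span of the list after Srebf2. The log2 fold changes of the 3 genes were 0.08 (-0.19 to 0.36), -0.0034 (-0.30 to 0.29) and 0.04 (-0.19 to 0.27), in that order.

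Scd1 and Scd2 introduce the first double bond into saturated fatty acids, and Scd2 was the top member at 369 RPKM, followed by Scd1 at 102 RPKM. Scd2 (chr19:44293674-44306864) measured 2026, 2119, 1998 and 1587 CPM in WT and 1878, 2175, 2319 and 2035 CPM in Dp1Tyb. Scd1 (chr19:44394455-44407879) measured 492, 493, 548 and 392 CPM in WT and 336, 561, 627 and 535 CPM in Dp1Tyb. Dp1Tyb replicate 1 was the lowest library for Scd1 but not for Scd2. The 2 genes are close paralogues, and reads that align to both had been discarded, which can lower each. The ratio of Scd1 to Scd2 per exon length was 0.278 in WT and 0.267 in Dp1Tyb (geometric means, two-sided exact permutation test, p = 0.914, n = 4 per genotype).

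Elovl6 elongates palmitate, and Fads1 and Fads2 desaturate polyunsaturated fatty acids. Elovl6 (chr3:129532355-129638495) measured 163, 167, 174 and 142 CPM in WT and 128, 139, 182 and 145 CPM in Dp1Tyb. Fads1 (chr19:10182888-10196877) measured 276, 296, 246 and 180 CPM in WT and 193, 298, 313 and 244 CPM in Dp1Tyb. Fads2 (chr19:10062765-10101746) measured 111, 121, 128 and 85.6 CPM in WT and 87.1, 129, 149 and 121 CPM in Dp1Tyb. The genotypes overlapped in all 3, although Dp1Tyb replicates 2 and 3 lay above every WT library for Fads1 and Fads2, with log2 fold changes of -0.12 (-0.40 to 0.16), 0.07 (-0.35 to 0.49) and 0.13 (-0.26 to 0.52) in that order. Fads1 to Fads2 per exon length was 1.53 in WT and 1.48 in Dp1Tyb (geometric means, two-sided exact permutation test, p = 0.657, n = 4 per genotype). The smallest p this test allows is 0.0286, and after adjustment over the 3 ratios every p was 0.914.

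**Figure D2:**
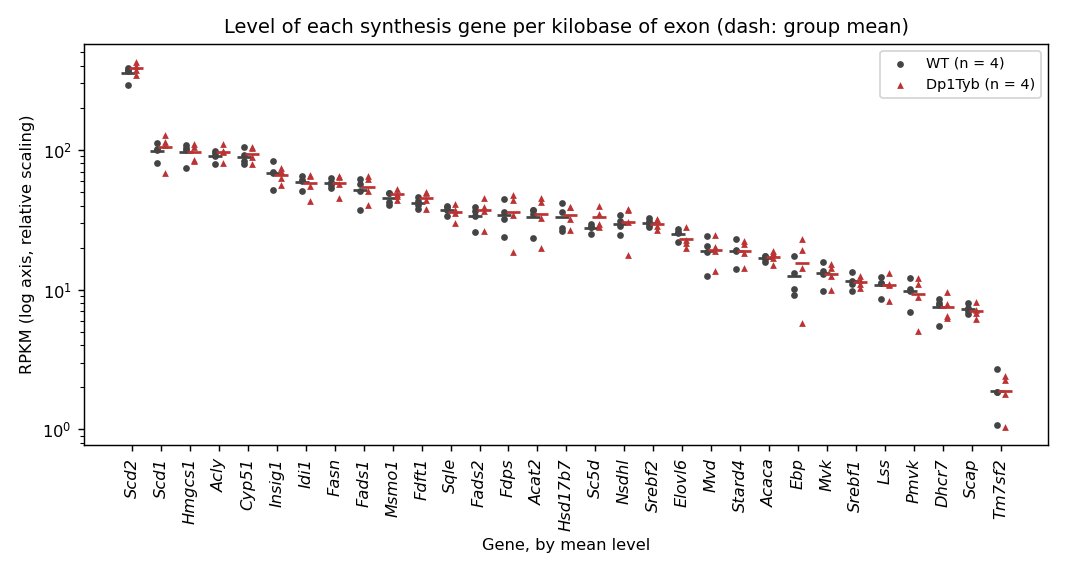
Levels of the members (RPKM with relative scaling, log axis) by gene, with each library as a point for WT and Dp1Tyb. Scd2 is highest at a mean of 369 RPKM and Tm7sf2 lowest at 1.87 RPKM, and the points of the genotypes overlap in every gene (dashes are group means).

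The sterol and fatty acid genes varied between libraries in ways that ran across the genotypes. With relative scaling, 18 of 19 sterol genes in WT replicate 4 and 18 of 19 in Dp1Tyb replicate 1 lay below their own mean over the 8 libraries, with a median deviation of -0.37 log2 in each. Of all tested genes, 50.5% and 49.2% lay below their own mean in these libraries. In Dp1Tyb replicate 3 all 19 sterol genes were above their own mean (median 0.25), and in Dp1Tyb replicate 2 and WT replicate 3 it was 17 of 19 each, beside 52.7%, 50.7% and 50.2% of all tested genes above their own mean in these libraries. The lowest library was Dp1Tyb replicate 1 for 11 sterol genes, WT replicate 4 for 7 and WT replicate 1 for 1.

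Fatty acid genes deviated in some of the same libraries, where the shares of all tested genes are those just given, with 7 of 8 below their own mean in WT replicate 4 (median -0.27), 8 of 8 below in Dp1Tyb replicate 1 (median -0.24) and 8 of 8 above in Dp1Tyb replicate 3 (median 0.24). With this relative scaling, the medians of the regulators lay between -0.15 and 0.15 in all 8 libraries. Below their own mean were 4 of 4 regulators in Dp1Tyb replicate 1 and 3 of 4 in WT replicate 4. Above it were 4 of 4 in WT replicate 1 and 3 of 4 each in WT replicate 3, Dp1Tyb replicate 3 and Dp1Tyb replicate 4. In Dp1Tyb replicate 2 and WT replicate 2, 3 of 4 regulators were below their own mean, where 17 and 14 of the 19 sterol genes were above theirs. Of all tested genes, 51.6%, 51.1% and 50.8% were above their own mean in WT replicate 1, WT replicate 2 and Dp1Tyb replicate 4. Together, the 19 sterol genes made up 0.301%, 0.280%, 0.301% and 0.228% of the endogenous counts in the WT libraries and 0.221%, 0.302%, 0.309% and 0.265% in the Dp1Tyb libraries. One library of each genotype was therefore low and the genotype means were alike, at 0.278 ± 0.034% in WT and 0.274 ± 0.041% in Dp1Tyb (SD, n = 4). The 8 fatty acid genes made up 0.444 ± 0.052% and 0.448 ± 0.051%.

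**Figure D3:**
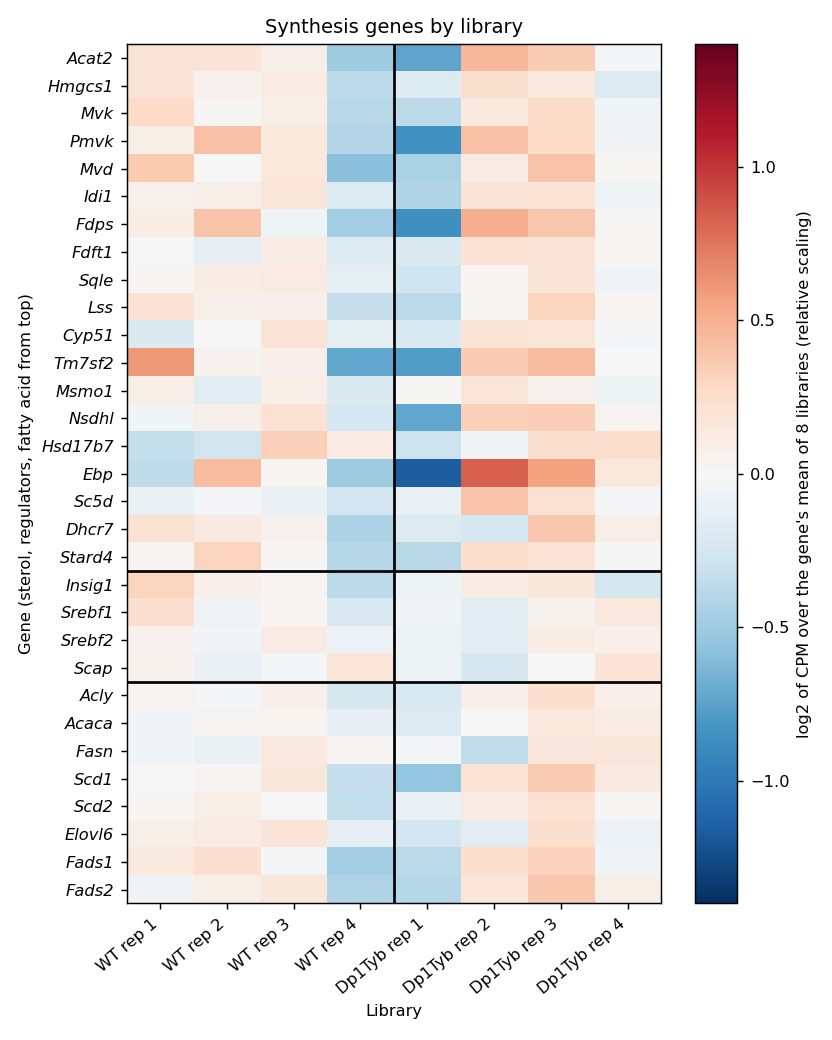
Deviation of each member (rows) from its own mean of 8 libraries (columns, relative scaling, log2 of CPM over the mean) on a colour scale from blue (below) to red (above). WT replicate 4 and Dp1Tyb replicate 1 are blue for 18 of 19 sterol genes each, and Dp1Tyb replicate 3 is red for all 19.

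The deviations below each gene's own mean changed with the scaling. With median-of-ratios and with upper-quartile factors over endogenous genes, 18 of 19 sterol genes were again below their mean in WT replicate 4 and in Dp1Tyb replicate 1, while counts in other libraries moved. With spike-in scaling, 19 of 19 sterol genes lay below their mean in WT replicate 3, 18 of 19 in Dp1Tyb replicate 2, 15 of 19 in WT replicate 2, 13 of 19 in WT replicate 4 and 13 of 19 in Dp1Tyb replicate 1. Of all tested genes, 93.5%, 92.6%, 73.9%, 21.9% and 24.1% were below their mean in those libraries, in the same order. In WT replicate 4 and Dp1Tyb replicate 1 the median deviation of the sterol genes was -0.14 and -0.10 log2 with spike-in scaling, beside 0.22 and 0.27 for all tested genes. The regulators' medians ran from -0.69 in Dp1Tyb replicate 2 to 0.50 in Dp1Tyb replicate 4 with spike-in scaling, and those of the sterol genes from -0.40 to 0.38. Of the fatty acid genes, 5 of 8 lay below their mean in WT replicate 4 (median -0.049) and 3 of 8 in Dp1Tyb replicate 1 (median 0.027) with spike-in scaling. All 8 lay below it in WT replicate 3 and in Dp1Tyb replicate 2. In Dp1Tyb replicate 3, 0 of 8 did (median 0.31), beside 30.5% of all tested genes. Proliferation markers (Mki67, Top2a, Ccnb1, Cdk1, Aurkb and Birc5, all 6 detected) had a summed level of 173 CPM in Dp1Tyb replicate 1, the lowest library, but 577 CPM in WT replicate 4, close to the 565 CPM of WT replicate 1 and the 595 CPM of WT replicate 3. Their range was 565 to 1405 CPM in WT and 173 to 1270 CPM in Dp1Tyb. The 5 endothelial markers summed to 78.9 CPM in Dp1Tyb replicate 1 and 56.4 CPM in WT replicate 4, and to 31.8 to 46.8 CPM elsewhere. This order came from Kdr alone (72.3 and 51.6 CPM in those libraries). Pecam1, Cdh5, Tek and Emcn were each highest in another library, at no more than 6.66 CPM. Tek was lowest in WT replicate 4 at 1.75 CPM. The 10 fibroblast markers did not move together in Dp1Tyb replicate 1 and WT replicate 4. Col1a1 was lowest there (3236 and 3443 CPM, and 4237 to 8389 CPM elsewhere), as was Lum (84.9 and 82.6 CPM). Col1a2 and Col3a1 were lowest in WT replicate 4, and Thy1 in Dp1Tyb replicate 1. Vim, Pdgfrb and Fn1 were highest in Dp1Tyb replicate 1, at 4541, 694 and 11414 CPM. Pdgfra and Dcn had their extremes in other libraries. The part of these markers in the sterol gene levels was not tested.

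**Figure D4:**
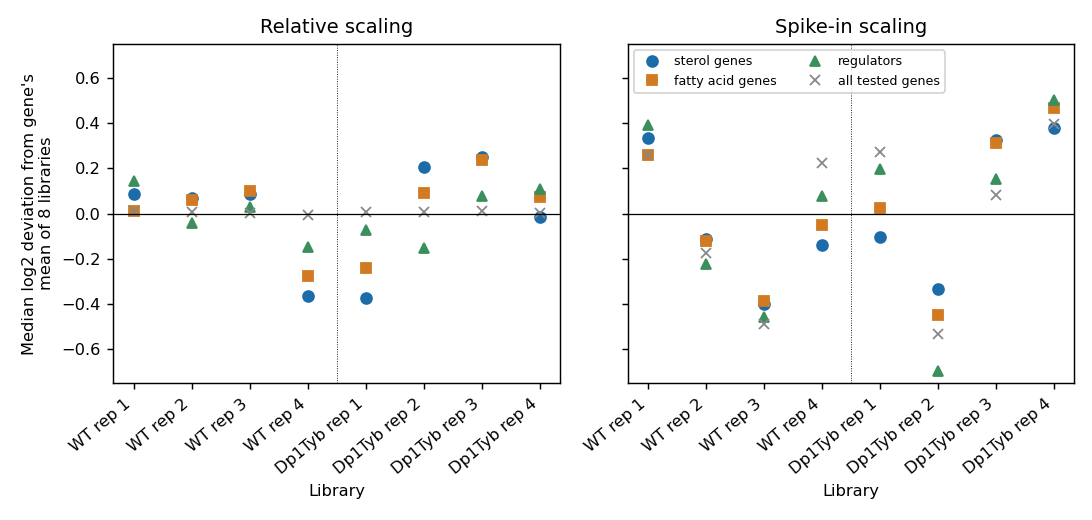
Median deviation from the gene's own mean of 8 libraries (log2, y axis) for sterol genes, regulators, fatty acid genes and all tested genes in each library (x axis), with relative scaling on the left and spike-in scaling on the right. On the left, sterol genes sit at -0.37 in WT replicate 4 and in Dp1Tyb replicate 1 and at 0.25 in Dp1Tyb replicate 3, while all tested genes stay near 0, and on the right all tested genes run from -0.53 to 0.40.

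The median sterol gene had a highest library 1.60 times its lowest, with a range from 1.30 (Msmo1) to 3.96 (Ebp), against 1.34 for the regulators and 1.44 for the fatty acid genes. Across all tested genes the median was 1.78, and across those with a mean of at least 8 CPM, the range in which all members lie, it was 1.53. The within-genotype SD of log2 levels had a median of 0.286 for the sterol genes, 0.151 for the regulators and 0.180 for the fatty acid genes, beside 0.277 for all tested genes and 0.204 for those of at least 8 CPM.

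Promoters of the members were searched for short motifs known from sterol-regulated promoters. RefSeq start sites (GRCm38.p6, 250 bases before to 50 after) were given for 24 of the 31 members, and not for Fdps, Fdft1, Sqle, Stard4, Scd1, Scd2 and Fads1. The letters searched on both strands were CCAAT (the NF-Y box), GGGCGG (a GC box), CACGTG (an E-box) and TCACNCCAC (a sterol regulatory element), none of which contains another. CCAAT was found in 14 of 15 sterol genes, 3 of 4 regulators and 2 of 5 fatty acid genes, against 41.1% of all genes with such windows. GGGCGG was found in 14 of 15, 4 of 4 and 2 of 5, against 38.2%. The E-box was in 3 of 15, 2 of 4 and 0 of 5, against 8.09%, and the sterol regulatory element letters were in 1 of 15 sterol genes, Hmgcs1, against 1.44%. These are matches of letters and not sites of binding, and no chance test was run. The shares of all genes cover 27025 genes, expressed in MEFs or not, whereas all members were expressed here. A share over expressed genes alone was not computed. Whether the motifs have a part in the deviations between libraries was not tested.

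The 200 bases before the start site are shown for 5 genes, with matches to the 4 motifs in capitals (ATTGG and CCGCCC are CCAAT and GGGCGG on the other strand). They are Hmgcs1 for its sterol regulatory element letters, Ebp and Nsdhl as the X-linked members, Acat2 as the sterol gene with no CCAAT, and Insig1 as the regulator that varied most.
Hmgcs1 (chr13:119690151-119690350, plus strand): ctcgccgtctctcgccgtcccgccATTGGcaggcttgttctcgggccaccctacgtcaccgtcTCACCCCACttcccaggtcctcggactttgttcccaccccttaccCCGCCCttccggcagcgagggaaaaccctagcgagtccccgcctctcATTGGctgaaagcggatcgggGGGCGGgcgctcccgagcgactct
Ebp (chrX:8193513-8193712, minus strand): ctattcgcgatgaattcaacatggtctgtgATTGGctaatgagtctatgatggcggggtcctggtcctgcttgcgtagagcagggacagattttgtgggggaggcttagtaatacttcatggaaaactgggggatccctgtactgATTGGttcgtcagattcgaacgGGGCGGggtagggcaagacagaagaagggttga
Nsdhl (chrX:72918321-72918520, plus strand): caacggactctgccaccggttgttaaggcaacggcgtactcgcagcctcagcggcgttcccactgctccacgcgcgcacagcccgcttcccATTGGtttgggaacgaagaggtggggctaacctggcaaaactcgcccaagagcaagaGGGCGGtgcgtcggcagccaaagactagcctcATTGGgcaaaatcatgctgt
Acat2 (chr17:12960726-12960925, minus strand): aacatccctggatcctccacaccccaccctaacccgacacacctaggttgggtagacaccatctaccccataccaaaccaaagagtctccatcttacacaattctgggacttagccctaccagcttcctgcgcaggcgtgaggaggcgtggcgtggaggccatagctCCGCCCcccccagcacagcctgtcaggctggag
Insig1 (chr5:28071212-28071411, plus strand): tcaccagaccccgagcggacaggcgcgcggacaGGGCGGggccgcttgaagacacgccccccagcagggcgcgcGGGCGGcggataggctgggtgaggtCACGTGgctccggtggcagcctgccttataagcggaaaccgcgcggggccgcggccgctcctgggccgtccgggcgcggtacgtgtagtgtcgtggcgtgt
Dp1Tyb replicate 1 was the lowest library for 11 of the 19 sterol genes, among them Ebp, Nsdhl and Acat2. WT replicate 4 was the lowest for Hmgcs1 and Insig1.

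Beyond the members, 80 further genes of lipid metabolism were listed and 76 of them tested. They covered isoprenoid branches (10 tested), SREBP processing (10), cholesterol uptake, traffic and storage (15), LXR genes (6), other fatty acid genes (21) and fatty acid oxidation (14). With edgeR, 0 of 76 were called with either scaling, 0 had an unadjusted p under 0.05 with spike-in scaling, and 3 had one with relative scaling, where 4.27% of all tested genes did. These 3 are given because the rule for named genes asks for them. Abca1, the cholesterol exporter, measured 210, 120, 141 and 117 CPM in WT and 111, 109, 114 and 105 CPM in Dp1Tyb, all 4 Dp1Tyb libraries lying below all 4 WT libraries, as in 1.49% of tested genes. Its log2 fold change was -0.42 (-0.81 to -0.03), with an unadjusted p of 0.0381 from edgeR's model over all genes and an adjusted p of 0.999. Lpcat3, a phospholipid-remodelling enzyme, was at 58.2, 57.1, 64.5 and 56.0 CPM in WT and 59.6, 69.7, 81.2 and 70.2 CPM in Dp1Tyb, a log2 fold change of 0.25. Elovl1, which elongates very long chains, was at 74.2, 81.2, 86.6 and 88.2 CPM in WT and 99.2, 108, 92.7 and 88.1 CPM in Dp1Tyb, a log2 fold change of 0.23. In edgeR's model over all genes the unadjusted p was 0.0479 for Lpcat3 and 0.0440 for Elovl1, with an adjusted p of 0.999 each.

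Abca1 is also expressed by macrophages. The 6 macrophage markers summed to 101 to 128 CPM in WT and 57.0 to 91.3 CPM in Dp1Tyb, and 5 of the 6 had an unadjusted edgeR p under 0.05 in the relative fit, where 4.27% of all tested genes did, with none called. Their part in the Abca1 values was not tested.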

How the data were processed

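Poly(A) RNA of 8 MEF libraries, 4 WT and 4 Dp1Tyb, was sequenced with ERCC spike-ins. The methods and labels state that the authors prepared libraries with the TruSeq Stranded mRNA kit, trimmed reads with Trim Galore, aligned them with TopHat2 2.0.12 to GRCm38 and the spike-in sequences, discarded reads aligning to several places and counted genes with HTSeq. The HTSeq version, the annotation release and the strand option are not given in the sources used here. The deposited raw counts are whole reads per gene without normalisation, and served for all results. The authors' normalised counts were not used here, nor was their DESeq2 1.6.3 table, which holds the mean, log2 fold change, standard error, Wald statistic, p and adjusted p of their comparison.

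Positions and exon lengths came from GENCODE M21 (GRCm38), and promoters from RefSeq. Genes were filtered with filterByExpr, keeping 16470 of 19493. Dp1Tyb was compared with WT with edgeR 4.0.16 (R 4.3.3), using its two-sided quasi-likelihood test. Factors were median-of-ratios factors over 63 spike-ins (spike-in scaling) or TMM factors over endogenous genes (relative scaling). The study's methods also normalise these data on the spike-ins, without giving the formula. A call needed an adjusted p (Benjamini-Hochberg) below 0.05. CPM and RPKM use the TMM factors. Log2 levels carry a pseudocount of 0.5 counts. The 3 ratios were compared with exact permutation tests over libraries, adjusted over the 3. The procedure was tested on simulated data, and the outcome of that test is not given here.

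The members, lists, tests and the rule for named genes (17 members given in every library, any member under an unadjusted p of 0.05 or with separate groups, and at most 3 genes of each further list) were chosen with earlier results of these data known. Acat2, Fdps, Ebp and Sc5d fall outside that rule and are given after their values were seen. Alternatives were DESeq2 1.42.0, limma-voom (limma 3.58.1), other scaling factors, other filters, other pseudocounts, the replicate number as a block and leaving out each library. Libraries of a genotype differed beyond counting noise (chi-square per degree of freedom 10.4 to 95.7), so no pair agreed within sampling noise. Whether some are repeat preparations of 1 culture was not tested.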

Additional observations from a re-analysis of the deposited data

Results flagged for a closer look

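In 68 groups of 4 libraries (each member's level and each ratio in each genotype), 2 held a library whose gap to its nearest neighbour, on the log2 scale and as a share of the group's range, exceeded Dixon's 95% critical value, and chance would do so in about 1 of 20. The Scd1 to Scd2 ratio in Dp1Tyb had a gap of 0.886 of the range, with replicate 1 at 0.200 and the others between 0.288 and 0.302. Acat2 in WT had a gap of 0.862, with replicate 4 at 59.3 CPM and the others between 89.2 and 95.2 CPM.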

How the results depend on the processing

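The count of 0 members called held under every alternative run, with both scalings. The number of all genes called moved. From 2 with spike-in scaling it went to 7 with limma-voom, 0 with at least 10 counts in every library, 9 with the replicate block, 5 without both libraries high in Xist and 2 to 8 when each library was left out. From 3 with relative scaling it went to 52 with DESeq2, 5 with limma-voom, 0 with at least 10 counts in every library, 7 with the replicate block, 18 without both libraries high in Xist and 1 when any single library was left out. The cause was not tested.

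Replicate numbers shared by the genotypes correlated at 0.37, 0.52, 0.03 and 0.33 (deviations from group means over tested genes), and the labels do not say what a shared number marks. As 1 of the 4 pairs was near 0, the numbers were not taken as pairs. As a hint from the data, 6 of 8 libraries (replicates 1, 2 and 4 of both genotypes) correlated best with their own number and both replicates 3 did not. The block took tested genes under an unadjusted p of 0.05 from 703 to 1601 with relative scaling. In the fit with the replicate block, 0 members were called, and Sc5d had an unadjusted edgeR p of 0.0361 and an adjusted p of 0.492.

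Some of the 17 members followed in every setting changed sign, none being called. These were not only members with a fold change near 0. With spike-in scaling, Fasn went from 0.15 to -0.026 without Dp1Tyb replicate 4. Over all 31 members, the number above 0 went from 31 to 29 with limma-voom under spike-in scaling, and from 19 to 24 with median-of-ratios and to 14 with upper-quartile factors under relative scaling. With spike-in scaling, Elovl6 (0.0023) became -0.033 with limma-voom, -0.032 with the replicate block and -0.011 without both high-Xist libraries, where Insig1 became -0.039 and Scap -0.047. With relative scaling and median-of-ratios factors, Hmgcs1 became 0.0068, Srebf1 0.0072 and Fasn 0.0043. With upper-quartile factors Lss became -0.048, Dhcr7 -0.027 and Acaca -0.0069. With limma-voom Hmgcs1 became 0.0019, Lss -0.0055 and Srebf1 0.0016, and with the replicate block 0.00028, -0.0059 and 0.00097. Without both high-Xist libraries Hmgcs1 became 0.075 and Sqle 0.054.

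Leaving out each library in turn gave these ranges of log2 fold change for those of the 17 members followed in every setting that changed sign. With spike-in scaling they were Hmgcs1 -0.022 to 0.27, Sqle -0.049 to 0.22, Lss -0.018 to 0.30, Insig1 -0.087 to 0.29, Srebf1 -0.049 to 0.33, Srebf2 -0.032 to 0.31, Scap -0.13 to 0.28, Fasn -0.026 to 0.38 and Elovl6 -0.099 to 0.19. With relative scaling they were Hmgcs1 -0.11 to 0.062, Sqle -0.11 to 0.028, Lss -0.10 to 0.11, Dhcr7 -0.11 to 0.096, Insig1 -0.15 to 0.071, Srebf1 -0.065 to 0.085, Srebf2 -0.056 to 0.024, Scap -0.13 to 0.0070, Acaca -0.0013 to 0.10, Fasn -0.062 to 0.096, Scd1 -0.0053 to 0.25 and Fads1 -0.056 to 0.19. The log2 differences of the ratios, Dp1Tyb minus WT, ran over Scd1 to Scd2 -0.11 to 0.083, Fads1 to Fads2 -0.12 to 0.0077 and Srebf1 to Srebf2 -0.012 to 0.088. Fdps, outside those 17, also changed sign, reaching -0.0064 under spike-in scaling when WT replicate 3 was dropped. Under relative scaling it was -0.054 when WT replicate 4 was dropped, and -0.084 and -0.020 when Dp1Tyb replicates 2 and 3 were dropped in turn. The relative medians per list ran over -0.096 to 0.14 for the sterol genes, -0.057 to 0.034 for the regulators and -0.0033 to 0.17 for the fatty acid genes. Without both high-Xist libraries these relative medians were 0.157, -0.0097 and 0.193 in the same order. With upper-quartile factors and all libraries they were -0.022, -0.078 and 0.029. Counting error was far below the spread between replicates.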
